A study of Mus musculus with 5 samples.

Results

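The genes described here encode 10 integrin subunits, the alpha subunits α4, α5, α8, α9 and αv and the beta subunits β3, β5, β6, β7 and β8, which form receptors for fibronectin, vitronectin, osteopontin, nephronectin, tenascin and VCAM-1. They were chosen by name from the 21835 genes of the expression table, and all 10 were found there by their Ensembl identifiers. RNA came from murine lung cancer-associated fibroblasts (CAFs), the activated fibroblasts of a tumor stroma, of which 2 samples carried the empty vector (CAF-vec, genotype label WT control) and 3 samples overexpressed the miR-200b, miR-200a and miR-429 cluster from a lentivirus (CAF-200). Per the labels, the cluster was introduced with a neomycin-resistance vector and the cells were then selected with G418. The labels do not say whether a group is 1 clone or a mixed population. The animals' age and strain are not given in the labels, which also do not say whether the samples of a group were separate cultures, so *p* values measure the spread between these samples only. The study asked which genes change in CAFs when miR-200, a microRNA family best known for keeping epithelial cells epithelial, is restored.

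Integrins are membrane receptors made of 1 alpha and 1 beta chain, and the pair decides which matrix protein is bound. αv pairs with β1, β3, β5, β6 or β8, and these receptors, like α5β1 and α8β1, recognize the arginine-glycine-aspartate (RGD) motif of fibronectin, vitronectin, osteopontin or nephronectin. α4 and α9 are close relatives that pair with β1 (α4 also with β7) and bind VCAM-1, tenascin C and other ligands largely without RGD. In fibroblasts, αv and α5 integrins carry adhesion to fibronectin, and αvβ6 and αvβ8 are known for releasing active TGF-β from its latent complex.

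The overexpressed microRNAs fall into 2 groups by seed, the bases 2 to 8 that pair with a target. Their mature sequences, from RefSeq on GRCm38.p6, are shown because the target-site search in the integrin genes rests on them, with the seed in capitals.
miR-200b-3p: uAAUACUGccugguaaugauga
miR-429-3p: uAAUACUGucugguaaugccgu
miR-200a-3p: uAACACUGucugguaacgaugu
All 3 genes lie on the minus strand of chromosome 4, at chr4:156055685-156055706, chr4:156053916-156053937 and chr4:156054911-156054932 for the mature forms. The seeds of miR-200b and miR-429 are identical and match CAGTATT in a target, and that of miR-200a matches CAGTGTT.

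The longest annotated 3′-UTR of 3 of the 10 members held a seed match, and 7 held none, where 30.3% of all tested genes with a 3′-UTR held at least 1. The search covered the sense strand only. Each match is shown in capitals within its flanking bases, 5′ to 3′.
*Itgav*, miR-200b/miR-429: gtattaacaatggtaCAGTATTtt
*Itga4*, miR-200b/miR-429, first: aagaattatcttcaaCAGTATTga
*Itga4*, miR-200b/miR-429, second: tgtcctttctttggaCAGTATTat
*Itga4*, miR-200a: aaaaggggcagccttCAGTGTTgt
*Itgb8*, miR-200a: caactcaaaagtgagCAGTGTTta
The *Itgav* match is at chr2:83803989-83803995 (plus strand), position 654 of a 3′-UTR of 3581 bases. The *Itga4* matches are at chr2:79328919-79328925, chr2:79330062-79330068 and chr2:79328250-79328256 (plus strand), in a 3′-UTR of 6508 bases. The *Itgb8* match is at chr12:119161114-119161120 (minus strand), in a 3′-UTR of 5095 bases. Such matches are common in 3′-UTRs of these lengths. Among tested genes whose 3′-UTR was within 20% of the length of *Itgav*'s, 32.6% held a match to the miR-200b/miR-429 seed, and among those near the length of *Itgb8*'s, 55.5% held one to the miR-200a seed. Near the length of *Itga4*'s, 79.8% held a match to either seed. *Itgb3*, *Itga8* and *Itga9*, the members that changed between the groups, held no match to either seed in 3′-UTRs of 3331, 2483 and 3671 bases, where 59.2%, 49.4% and 60.6% of tested genes with a 3′-UTR of similar length held at least 1.

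The values are the authors' normalized read counts scaled to library size (CPM), and each sample's column summed to 999956 to 1000110, so the depth of a sample is unknown. Fold changes were taken on log2(CPM + 0.5) for the 12175 genes that reached 0.5 CPM in 2 or more samples, and a gene was said to rise or fall when its limma *p*, Benjamini-Hochberg adjusted across these genes, was under 0.05. Between the CAF-vec samples the SD of the log2 difference over genes was 0.49, against 0.19 to 0.20 between CAF-200 samples. The CAF-200 columns also held values above 0 that were far lower (from 1.16e-05 CPM) than the lowest in CAF-vec (0.00619 CPM), and all 3 had 6127 genes at 0, against 7898 and 7413. This difference follows the groups and cannot be told apart from them, and its part in the results for members near or under 1 CPM was not tested. *Zeb1*, a known target of miR-200, was 43.5 and 50.7 CPM in CAF-vec and 37.8, 37.5 and 34.1 CPM in CAF-200 (-0.36 in log2 units, limma adjusted *p* = 0.0504), and no row of the table carried the name of any of the 3 overexpressed microRNA genes. Of 10 fibroblast markers, 9 were at 1 CPM or more in every sample, and *Fap* was at 0.0684 to 0.391 CPM. Of these markers *Dcn*, *Lum* and *Thy1* rose, *Dcn* from 7.67 and 8.18 CPM to 51.0, 61.5 and 56.7 CPM, and *Col1a1* was 4613 and 2003 CPM in CAF-vec and 1719, 1599 and 1543 CPM in CAF-200. All 6 endothelial markers and all 8 epithelial markers stayed under 1 CPM, with summed levels of at most 1.06 CPM and 0.909 CPM in a sample. The 8 leukocyte markers had a summed level of 9.80 and 10.6 CPM for CAF-vec, against 12.8 to 13.2 CPM for CAF-200, while *Ptprc*, which encodes the pan-leukocyte antigen CD45, was at most 0.0404 CPM and *Adgre1* and *Cd3e* were at 0. *Lyz2*, a lysozyme gene of myeloid cells, rose from 1.11 and 1.99 CPM to 7.48, 7.16 and 6.48 CPM (1.91 in log2 units, limma adjusted *p* = 0.00395), *Itgb2* fell, and *Cd68* and *Csf1r* were above 2 CPM in every sample and overlapped between the groups. Of 5 smooth muscle and pericyte markers, *Acta2* rose from 92.8 and 125.7 CPM to 660.7, 653.5 and 706.5 CPM and *Cnn1* from 3.38 and 4.35 CPM to 32.0, 29.1 and 27.7 CPM, while *Cspg4* and *Rgs5* overlapped between the groups and *Myh11* was under 0.1 CPM throughout. The summed level of this list, nearly all of it *Acta2*, was 101.6 and 133.8 CPM for CAF-vec and 685.3 to 737.9 CPM for CAF-200. The part of these markers in the results was not tested. Fewer cells of a type and less RNA per cell cannot be told apart in such bulk samples.

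CAFs of both groups expressed a narrow set of these integrins. Genes were compared on CPM per kb of the longest annotated protein-coding transcript. The order of the members by their mean over all 5 samples was *Itgb5*, *Itga5*, *Itgav*, *Itgb7*, *Itga9*, *Itgb6*, *Itgb3*, *Itgb8*, *Itga8* and *Itga4*. *Itgb5* was at 81.4 to 137.9 CPM per kb over the 5 samples, *Itga5* at 18.1 to 20.96 and *Itgav* at 13.2 to 17.5, and the ranges of these neighbors did not overlap. The next member, *Itgb7*, was at 0.244 to 0.535 CPM per kb, and from there each member overlapped its neighbor in the order down to *Itga8* (0.0384 to 0.127), so neighbors there are not told apart, although *Itgb7* and *Itga9* were above *Itgb8* and *Itga8* in every sample. The order of these low members by mean differed between the groups. In CAF-vec *Itgb6* had the highest mean of them (0.514 CPM per kb) and *Itgb3* the lowest (0.0954). That *Itgb6* mean rested on CAF-vec 1 (0.967), and in CAF-vec 2 *Itgb6* was the lowest of them (0.0618). In CAF-200 *Itgb7* had the highest mean (0.515) and *Itga8* the lowest (0.0440). *Itga8* was above *Itgb3* in both CAF-vec samples and below it in all 3 CAF-200 samples. *Itga4* was listed at 0 in all 5 samples. The shared partner *Itgb1*, which encodes β1, exceeded every member, at 153.4 to 245.7 CPM per kb.

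**Figure D1:**
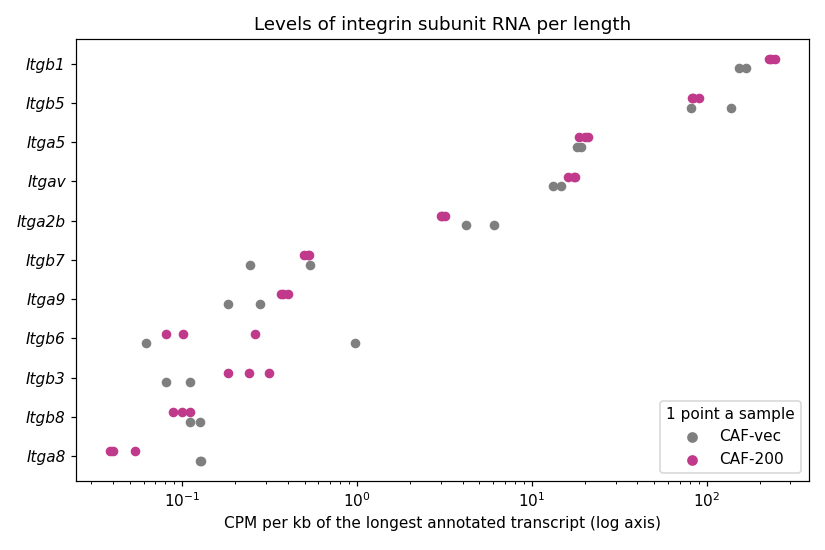
RNA level per kb of the longest annotated protein-coding transcript (log axis) for 9 members and the partner subunits *Itgb1* and *Itga2b*. Each point is 1 sample, gray for CAF-vec and magenta for CAF-200. *Itgb5*, *Itga5* and *Itgav* lie above 10 CPM per kb and the other plotted members below 1. *Itga4*, listed at 0, is not drawn.

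Of the 10 members, 9 were expressed highly enough to be tested, 2 of these rose (*Itgb3* and *Itga9*) and 1 fell (*Itga8*) in CAF-200, and 6 did not pass. Over all tested genes 30.5% passed the same threshold, 11.9% upward and 18.6% downward, a share near that of the members. Of the 3 that passed, *Itga8* and *Itgb3* were tested only because of the group where they are high, so the count supports nothing about the members. None of the members met the thresholds of the study's volcano plot, an adjusted *p* below 0.01 together with a change of more than 1 on the log2 scale, which 4.72% of all tested genes met (2.35% lower and 2.37% higher), although 4 members had an unadjusted *p* under 0.05. The median log2 fold change was 0.09 for the tested members and -0.09 for all genes tested. No member passed when any 1 CAF-200 sample was left out (3 were then at an unadjusted *p* under 0.05), and the share of all genes passing was then 7.52% to 10.1%. Of the tested members, 3 had every CAF-200 value above both CAF-vec values and 2 had every one below, while over all tested genes 24.3% lay above and 37.3% below, 61.6% in all.

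**Figure D2:**
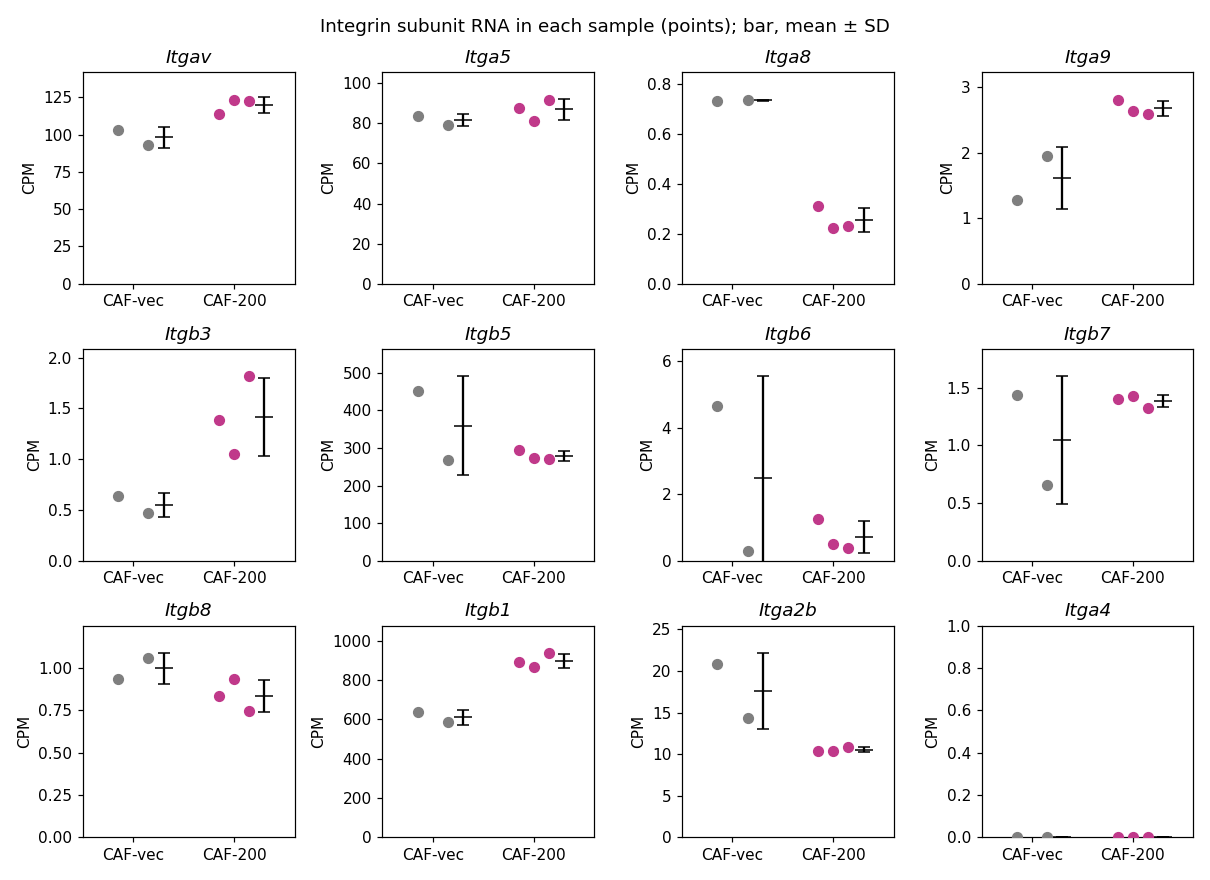
CPM of each member and of *Itgb1* and *Itga2b* in each sample, with linear axes from 0. Points are samples (gray, CAF-vec, magenta, CAF-200) and bars are mean ± SD (n = 2 and n = 3), with the CAF-vec bar of *Itgb6* cut at 0. *Itgb3*, *Itga9*, *Itgav* and *Itgb1* are higher in every CAF-200 sample than in either CAF-vec sample, *Itga8* is lower, and *Itgb5* and *Itgb6* are high in 1 CAF-vec sample only.

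Among the alpha chains of the RGD receptors, those of αv and α5 were abundant and that of α8 was near the lower end of the measured range. *Itgav* (ENSMUSG00000027087, GRCm38 chromosome 2, 83724397 to 83806916, plus strand), which encodes the αv chain shared by the vitronectin receptors, was 103.2 and 93.2 CPM in CAF-vec and 113.7, 123.6 and 122.8 CPM in CAF-200. All CAF-200 values lay above both CAF-vec values. Its mean was 98.2 ± 7.05 CPM (SD, n = 2) against 120.05 ± 5.48 CPM (SD, n = 3). The log2 fold change was 0.29 with a standard error of 0.0939, which missed the threshold (limma adjusted *p* = 0.0654). After centring each sample on its median the log2 fold change was 0.39 and it passed (limma adjusted *p* = 0.027), as it did after quantile normalization (0.39, limma adjusted *p* = 0.0233). With 1 CAF-vec sample left out it passed as well, at 0.36 without CAF-vec 1 and 0.22 without CAF-vec 2 (limma adjusted *p* = 0.00603 and 0.0331), but 47.0% and 64.6% of all genes passed in those fits. It did not pass with any 1 CAF-200 sample left out (limma adjusted *p* = 0.152 to 0.223).

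*Itga5* (ENSMUSG00000000555, chromosome 15, 103344286 to 103366763, minus strand) encodes α5, which with β1 forms the main fibronectin receptor of fibroblasts. It was 83.8 and 79.3 CPM in CAF-vec and 87.7, 81.2 and 91.8 CPM in CAF-200. The groups overlapped, and the log2 fold change of 0.09 had a 95% interval of -0.14 to 0.32 (limma adjusted *p* = 0.484).

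*Itga8* (ENSMUSG00000026768, chromosome 2, 12106632 to 12301922, minus strand), which encodes the α8 chain of the nephronectin receptor α8β1, fell. It was 0.733 and 0.739 CPM in CAF-vec and 0.311, 0.223 and 0.233 CPM in CAF-200, so every CAF-200 value was lower. The mean in CAF-200 was 0.347 times that in CAF-vec, and the log2 fold change on log2(CPM + 0.5), which understates changes at such low values, was -0.71 (standard error 0.155, limma adjusted *p* = 0.0216). *Itga8* reached the level for testing through its CAF-vec values alone, which favors a difference in that direction. Exons of an antisense gene, *E030013I19Rik*, overlap those of *Itga8* in the annotation, as do those of *Gm13684* with *Itgav*, and whether the counting used strand is not given in the sources used here.

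*Itga9* (ENSMUSG00000039115, chromosome 9, 118606690 to 118901003, plus strand) encodes α9, a receptor chain for tenascin C, EMILIN1 and SVEP1, and rose. It was 1.28 and 1.95 CPM in CAF-vec and 2.81, 2.63 and 2.58 CPM in CAF-200. All CAF-200 values lay above both CAF-vec values, for a log2 fold change of 0.60 (standard error 0.171, limma adjusted *p* = 0.0458). Without CAF-vec 1, the lower sample, the log2 fold change was 0.37 (limma adjusted *p* = 0.0736). *Itga4* (ENSMUSG00000027009, chromosome 2, 79255426 to 79333123, plus strand), which encodes the α4 chain of the VCAM-1 receptors of leukocytes, was listed at 0 in every sample. Its exons overlap those of *Cerkl* on the opposite strand.

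**Figure D3:**
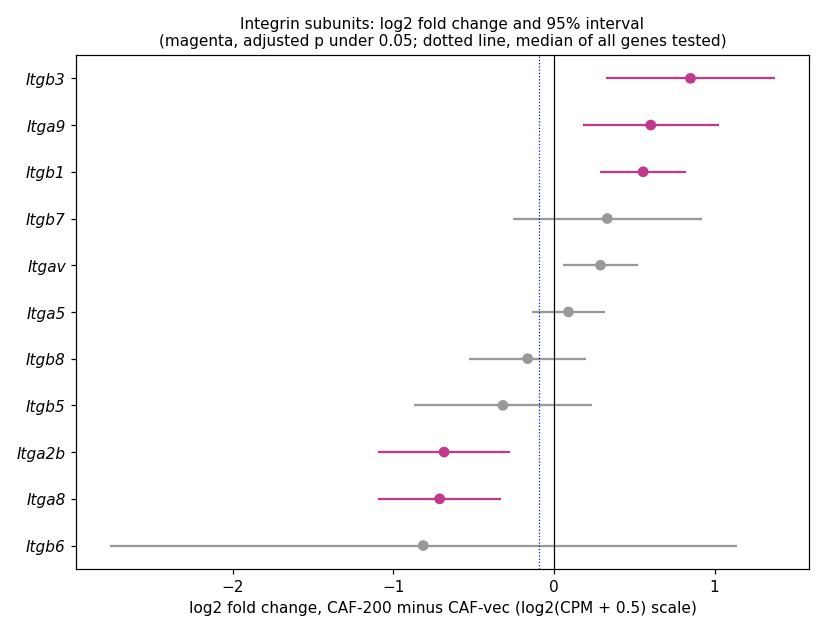
Log2 fold change (CAF-200 minus CAF-vec, on log2(CPM + 0.5)) of the 9 tested members and of *Itgb1* and *Itga2b*, with 95% intervals from limma. Magenta marks an adjusted *p* under 0.05 and the dotted line the median of all genes tested (-0.09). *Itgb3* has the largest rise of the members, at 0.85, and *Itgb6* the widest interval, from -2.77 to 1.14.

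Among the beta chains, *Itgb3* (ENSMUSG00000020689, chromosome 11, 104608000 to 104670476, plus strand) rose. It encodes β3, the partner of αv in the classical vitronectin receptor. It was 0.636 and 0.468 CPM in CAF-vec and 1.38, 1.05 and 1.82 CPM in CAF-200. All CAF-200 samples were above both CAF-vec samples, and the mean was 2.56 times that in CAF-vec. Its CAF-vec values alone would not have reached the level for testing, which favors a difference in that direction, as for *Itga8*. The log2 fold change was 0.85 (standard error 0.213, limma adjusted *p* = 0.0327), and lay between 0.70 and 0.99 when any 1 sample was omitted. β3 RNA nevertheless stayed low beside β5 RNA, with 0.245 against 85.0 CPM per kb on average in CAF-200.

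*Itgb5* (ENSMUSG00000022817, chromosome 16, 33829665 to 33949338, plus strand), which encodes β5, another vitronectin-binding partner of αv, was 452.6 and 267.1 CPM in CAF-vec and 294.3, 272.7 and 270.0 CPM in CAF-200. CAF-vec 1 was high and CAF-vec 2 lay just below the CAF-200 values, so the groups overlapped. The log2 fold change was -0.32 (95% interval -0.87 to 0.24, limma adjusted *p* = 0.313). It depended on which CAF-vec sample was used, at 0.06 without CAF-vec 1 and -0.70 without CAF-vec 2. Each of these fits leaves 1 CAF-vec sample, so only the log2 fold change is given.

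*Itgb6* (ENSMUSG00000026971, chromosome 2, 60598292 to 60722643, minus strand) encodes β6, which is known mainly from epithelial cells. It was 4.65 and 0.297 CPM in CAF-vec and 1.25, 0.486 and 0.387 CPM in CAF-200, with 1 high CAF-vec sample and overlapping groups (limma adjusted *p* = 0.456). In that sample, CAF-vec 1, the epithelial markers *Epcam*, *Cdh1*, *Krt18*, *Cldn7*, *Sftpc* and *Esrp1* were listed at 0, and *Krt8* and *Krt19* were at 0.0186 and 0.0657 CPM. The log2 fold change was -0.81, and it became 0.53 without CAF-vec 1 and -2.16 without CAF-vec 2.

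*Itgb7* (ENSMUSG00000001281, chromosome 15, 102215995 to 102231944, minus strand), which encodes the β7 chain of leukocyte homing receptors, was 1.44 and 0.656 CPM in CAF-vec and 1.40, 1.42 and 1.32 CPM in CAF-200. The groups overlapped, with CAF-vec 2 low (0.33 in log2 units, limma adjusted *p* = 0.321). Without CAF-vec 1 its log2 fold change was 0.70 and without CAF-vec 2 it was -0.041. Of the genes for its known alpha partners, *Itga4* was listed at 0 and *Itgae*, which encodes αE, was at most 0.0494 CPM. *Itgb8* (ENSMUSG00000025321, chromosome 12, 119158022 to 119238802, minus strand), which encodes the other TGF-β-activating partner of αv, was 0.931 and 1.06 CPM in CAF-vec and 0.831, 0.931 and 0.744 CPM in CAF-200. The highest CAF-200 value and the lower CAF-vec value were the same to 3 digits, and the log2 fold change was -0.16 (95% interval -0.53 to 0.20, limma adjusted *p* = 0.423).

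The beta chain that α5, α8, α9 and αv share rose. *Itgb1*, which pairs with many alpha chains outside this group as well, was 639.0 and 585.1 CPM in CAF-vec and 892.0, 867.4 and 937.5 CPM in CAF-200 (0.55 ± 0.108 SE in log2 units, limma adjusted *p* = 0.0161). All CAF-200 values were above both CAF-vec values. *Itga2b*, which encodes the αIIb partner of β3 known from platelets, fell from 20.8 and 14.3 CPM to 10.4, 10.3 and 10.9 CPM (-0.68 in log2 units, limma adjusted *p* = 0.0297). With any 1 CAF-200 sample left out the log2 fold change of *Itgb1* was 0.52 to 0.58 (limma adjusted *p* = 0.0798 to 0.0969), and that of *Itga2b* was -0.71 to -0.67 (limma adjusted *p* = 0.0987 to 0.107). The size of the fall of *Itga2b* depended on the CAF-vec sample, at -0.42 without CAF-vec 1 and -0.95 without CAF-vec 2, and it did not pass without a filter on low values (limma adjusted *p* = 0.0512).

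The RNA of the beta chains available to αv was almost entirely that of β1 and β5. Of the summed CPM per kb of *Itgb1*, *Itgb3*, *Itgb5*, *Itgb6* and *Itgb8*, *Itgb1* made up 54.6% and 65.3% in CAF-vec and 72.1%, 73.1% and 74.8% in CAF-200. *Itgb5* made up 45.0% and 34.6% in CAF-vec and 27.7%, 26.7% and 25.0% in CAF-200. *Itgb3*, *Itgb6* and *Itgb8* each stayed at or under 0.315% in every sample. The share of *Itgb5* was thus lower in each CAF-200 sample than in either CAF-vec sample (39.8 ± 7.32%, SD, n = 2, against 26.5 ± 1.33%, SD, n = 3), although *Itgb5* itself overlapped between the groups. No test was run on these shares. An exact permutation test of 2 samples against 3 could not reach a *p* of 0.05. RNA shares are not shares of receptor pairs at the cell surface, which were not measured here. The ratio of *Itgav* to *Itga5*, the other abundant RGD-binding alpha chain, was 0.765 and 0.730 in CAF-vec and 0.805, 0.946 and 0.830 in CAF-200 on the same scale.

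**Figure D4:**
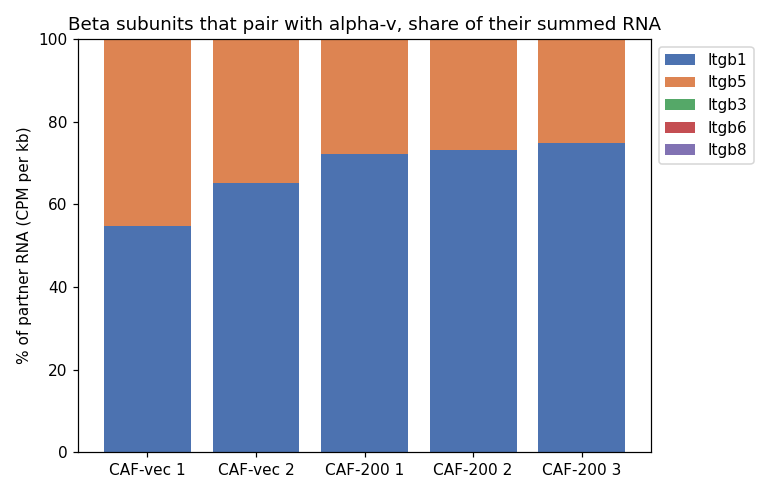
Share (%) of each beta subunit in the summed RNA, in CPM per kb, of the 5 beta subunits that pair with αv, 1 bar a sample. *Itgb1* is at 54.6% and 65.3% in CAF-vec and at 72.1% or more in CAF-200, and *Itgb5* makes up nearly all of the rest, so that *Itgb3*, *Itgb6* and *Itgb8* are too small to see.

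Ligands of these receptors changed in both directions. Of 23 ligand genes, 16 were tested, 5 rose (*Spp1*, *Npnt*, *Fbn1*, *Ccn1* and *Fn1*), 4 fell (*Emilin1*, *L1cam*, *Svep1* and *Adam15*) and 7 did not pass, with a median log2 fold change of 0.08. This is 56.2% of the tested ligands, where 30.5% of all tested genes passed (11.9% higher and 18.6% lower), and the difference was not tested. *Spp1*, *Npnt*, *Emilin1* and *L1cam* were named by the size of their change, and the other ligands named here were chosen after their values were seen. *Spp1*, which encodes osteopontin, a ligand of αv integrins and of α9β1, rose from 302.0 and 340.5 CPM to 1848, 1744 and 2024 CPM (2.54 ± 0.126 SE in log2 units, limma adjusted *p* = 9.3e-04). *Npnt*, which encodes nephronectin, the ligand of α8β1, rose from 12.9 and 15.6 CPM to 81.5, 80.6 and 88.0 CPM (2.51 ± 0.111 SE in log2 units, limma adjusted *p* = 9.3e-04).

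*Fn1*, which encodes fibronectin, rose from 1260 and 1419 CPM to 1789, 1807 and 1834 CPM (0.44 in log2 units, limma adjusted *p* = 0.0448), while its receptor chain *Itga5* did not pass. *Fbn1*, which encodes the microfibril protein fibrillin-1 with an RGD motif, rose by 0.80 on the log2 scale, and *Ccn1*, which encodes a matricellular ligand of αv integrins, by 0.78 (limma adjusted *p* = 0.00352 and 0.00755). *Emilin1* fell from 160.0 and 139.8 CPM to 76.4, 67.8 and 66.0 CPM, a log2 fold change of -1.09 (limma adjusted *p* = 0.00343), and *Svep1* fell by 0.93 on the log2 scale (limma adjusted *p* = 0.00461). *L1cam*, which encodes a neural adhesion molecule that binds RGD integrins, fell by 0.94 on the log2 scale (limma adjusted *p* = 0.0281). Its mean in CAF-200 was 0.287 times that in CAF-vec, a fall that the added 0.5 CPM understates. Like *Itga8*, it reached the level for testing through its CAF-vec values alone. Exons of *Arhgap4* overlap those of *L1cam* on the same strand. EMILIN1 and SVEP1 are ligands of α9β1, whose alpha chain *Itga9* was higher in CAF-200. *Tnc*, which encodes tenascin C, another α9β1 ligand, was 112.0 and 90.3 CPM in CAF-vec and 101.9, 97.2 and 112.2 CPM in CAF-200 (limma adjusted *p* = 0.811). *Vcam1*, which encodes the α4β1 and α9β1 ligand VCAM-1, was 127.8 and 134.1 CPM against 141.0, 142.3 and 143.8 CPM (0.12 in log2 units, limma adjusted *p* = 0.289). *Vtn*, which encodes vitronectin, was at most 0.0906 CPM, and the fibrinogen genes *Fga*, *Fgb* and *Fgg* were listed at 0 in every sample.

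**Figure D5:**
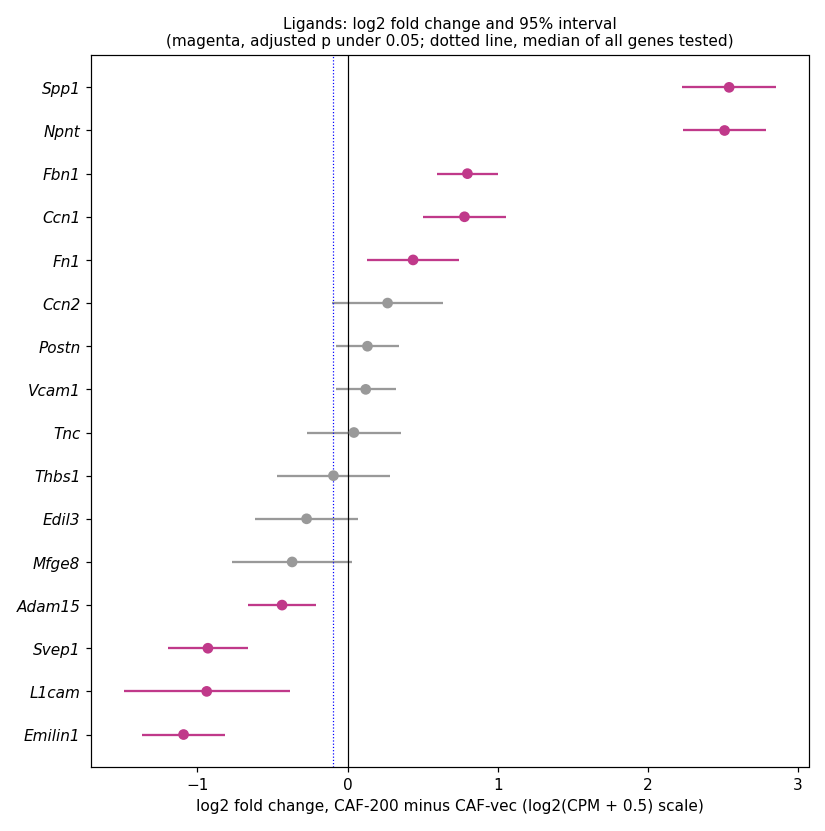
Log2 fold change (CAF-200 minus CAF-vec, on log2(CPM + 0.5)) of the 16 tested ligand genes with 95% intervals from limma. Magenta marks an adjusted *p* under 0.05. *Spp1* (2.54) and *Npnt* (2.51) stand above the other ligands, and *Emilin1* (-1.09) has the largest fall on this scale.

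The latent TGF-β complex, from which αvβ6 and αvβ8 release the growth factor, had members that changed in either direction. All 6 of its listed genes were tested, 2 rose, 1 fell and 3 did not pass, against 30.5% of all tested genes that passed. The median log2 fold change of the list was -0.41, and 4 of the 6 genes were lower in every CAF-200 sample than in either CAF-vec sample. The other 2 were higher in every CAF-200 sample. Over all tested genes 37.3% lay below in this way and 24.3% above, and the difference from the list was not tested. *Tgfb1* rose by 0.57 on the log2 scale (19.8 and 17.9 CPM in CAF-vec, against 28.7, 24.7 and 31.8 CPM in CAF-200, limma adjusted *p* = 0.0248), and *Lrrc32*, which encodes the membrane anchor GARP, by 0.92 (limma adjusted *p* = 0.00434). *Tgfb3* fell by 0.68 on the log2 scale (limma adjusted *p* = 0.00991). The activating beta chains *Itgb6* and *Itgb8* themselves did not pass.

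Of 28 genes for proteins that bind integrin tails or link them to actin and kinases, 27 were tested, 4 rose and 6 fell, and 17 did not pass. The share that passed, 37.0%, was near the 30.5% of all tested genes, and the median log2 fold change was -0.08. *Ptk2b*, which encodes the kinase PYK2, rose by 0.97 and *Apbb1ip*, which encodes the talin recruiter RIAM, by 0.60 on the log2 scale (limma adjusted *p* = 0.00616 and 0.0238). *Lims2*, an adaptor of the integrin-linked kinase complex, fell by 0.65 and *Vcl*, which encodes vinculin, by 0.60 (limma adjusted *p* = 0.00866 and 0.00636). With every sample centred at its own median, 8 rose and 2 fell, so the balance of this list depends on the scaling.

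Of 14 other integrin genes, 7 were tested and 4 of these passed (57.1%, against 30.5% of all tested genes, a difference that was not tested), and the median log2 fold change was -0.44. *Itga6* rose, and *Itga3*, *Itga7* and *Itgb2* fell, with log2 fold changes of 1.18, -1.35, -1.11 and -0.86, and *Itga6*, *Itga3* and *Itga7* passed the thresholds of the volcano plot, which 4.72% of all tested genes and no member did. The difference between these laminin-binding chains and the members was not tested. *Itga7* shares exon positions with *Mettl7b* on the opposite strand.

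The genes whose profile over the 5 samples was most like that of a member were found by the distance between mean-centered log2(CPM + 0.5) values. The added 0.5 understates changes at the low values of *Itgb3* and *Itga8*, so likeness to genes at higher CPM depends on it. Other pseudocounts were not tried for this. For *Itgb3* they were *Dusp5*, *Chrna7* and *Slc11a1* (distances of 0.0912, 0.125 and 0.172 log2 units). *Dusp5*, which encodes a phosphatase of ERK, was 24.6 and 20.8 CPM in CAF-vec and 40.5, 35.7 and 49.4 CPM in CAF-200, with the same order of samples as *Itgb3*. For *Itga8* they were *Tyk2*, *Renbp* and *Gm12258* (distances of 0.0514, 0.0720 and 0.0730 log2 units). *Tyk2*, which encodes a JAK-family kinase, was 15.4 and 15.6 CPM in CAF-vec and 9.94, 9.20 and 9.17 CPM in CAF-200.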

How the data were processed

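Murine lung CAF-vec (n = 2) and CAF-200 (n = 3) RNA was sequenced by the authors as stranded mRNA libraries (paired-end reads of 100 bases). The authors deposited 1 table of CPM values, named for TMM. The submitters' processing notes name FastQC, cutadapt, Trimmomatic, STAR, RSEM and edgeR and the builds GRCm38 and mm10. Their versions and settings are not given in the sources used here. The labels and the paper's methods differ in the RNA extraction kit, in the resistance gene of the vector and in the number of CAF-vec extractions (3 in the methods, against 2 samples here), and the labels were followed. In each CAF-200 column 6127 genes were at 0 and the lowest other value was 1.16e-05 to 3.05e-05 CPM, against 0.00619 and 0.0069 CPM in CAF-vec. Whole reads could not be recovered from the low values, so no count test was run and the depth is unknown. All 5 sample columns were used.

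Log2(CPM + 0.5) was fitted with limma 3.58.1 (R 4.3.3, variance trend) for genes reaching 0.5 CPM in 2 or more samples, contrasting CAF-200 with CAF-vec. The fit was also run on simulated data with the same spread in both groups. The spread differed between the groups here, so that run does not show how the fit performs on these data. Gene models, lengths and 3′-UTRs were those of GENCODE M21 on GRCm38, where 21795 genes of the table were found. Levels between genes were compared as CPM per kb of the longest protein-coding transcript. Named genes were all members and partners, up to 4 genes of each other list with the largest change at an adjusted *p* under 0.05, and the 3 closest profiles of the members with the strongest rise and fall. Further ligands, markers and overlapping genes were named after their values were seen. The members and lists were chosen with earlier results of these data known. Alternatives were other pseudocounts, filters, scalings and thresholds, no variance trend, each sample left out, the replicate number as a block, and other lengths and 3′-UTRs. Computations used Python 3.11.15, pandas 2.3.3, numpy 2.4.6 and matplotlib 3.10.9.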

Additional observations from a re-analysis of the deposited data

How the results depend on the processing

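With 2 and 3 samples the calls were fragile, and why they moved as follows was not tested. The 1 member that fell became 0 at 1 CPM or more in every sample, where 4 members were tested, 0 with the replicate block, 0 at an adjusted *p* under 0.01, and 0 to 3 with each sample left out. The 2 that rose became 1 without a filter, 1 at 1 CPM or more in every sample, 0 with the replicate block, 0 at an adjusted *p* under 0.01, and 0 to 3 with each sample left out. By the study's thresholds 0 members fell, and 0 to 1 with each sample left out. With the block, which leaves CAF-200 3 out of the fold change, 3 members had an unadjusted *p* under 0.05, 12.2% of all genes passed, and *Itga8*, *Itga9* and *Itgb3* had log2 fold changes of -0.69, 0.62 and 0.70 (adjusted *p* = 0.103, 0.117 and 0.0833, limma). *Itgb1* and *Itga2b* did not pass with the block either (adjusted *p* = 0.148 and 0.0643, limma). Same-numbered samples had correlations of 0.25 and 0.13 of their deviations from the group means. The differently numbered CAF-vec 2 and CAF-200 3 had 0.12. The remaining pairs had the same values with a minus sign, since the deviations of 2 CAF-vec samples mirror each other. The labels do not say that a number marks a shared culture. Leaving out a CAF-vec sample leaves 1, which was assumed to vary like the others. Directions changed without CAF-vec 1 for *Itgb5* (0.062, against -0.70 without CAF-vec 2) and *Itgb6* (0.53, against -2.16) and without CAF-vec 2 for *Itgb7* (-0.041, against 0.70 without CAF-vec 1), and for no other tested member under the alternatives run. *Itga8* ranged from -1.24 to -0.47 over pseudocounts and the other alternatives.

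With the block, the ligands that rose numbered 3 and those of the latent TGF-β list 1, and of the tail-binding list 0 fell and 1 rose. That list had 2 that fell after quantile normalization and 2 that fell and 8 that rose after centring. With each sample left out, 2 to 5 ligands fell and 3 to 6 rose, 0 to 4 latent TGF-β genes fell and 1 to 2 rose, and 0 to 10 tail-binding genes fell and 1 to 9 rose. Of all genes passing, 39.0% were higher, against 48.5% after quantile normalization and 51.6% after centring, which moved the median of all genes from -0.09 to 0.0027. With any annotated 3′-UTR 4 members held a seed match. The exon union as length changed the rank of 0 members. Count tests on recovered reads were not run.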
